A study of Homo sapiens with 22 samples.

Results

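BCR, ABL1 and NUP214 were examined by the density of transposon insertions in and around each gene. The members are picked out by position, and the region itself was chosen with earlier results of these data known. They are the insertions of 20 libraries that lie on chromosome 22 from 21 to 25.5 Mb or on chromosome 9 from 129.5 to 132.5 Mb of the human genome build hg38. These 2 windows hold 150 bins of 50 kb, of 57629 bins of that length on chromosomes 1 to 22 and X, and 240333 of 52154230 insertions, which is 0.461%. All insertions of both windows were kept. Each insertion is 1 line of a deposited file, with its TTAA site, its orientation, its barcode and the count of reads behind it.

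The study made calling card libraries in K562, an established human cell line from chronic myeloid leukemia. In a calling card experiment a transposase, here the helper, moves a donor transposon from a plasmid into the genome at the sequence TTAA, and the RNA made from the inserted donor reports where it landed. One group of 10 libraries used the hyPBase helper and the other group of 10 used hyPBase-centrip, each electroporated at 5 µg with 5 µg of the donor Barcoded-PBase-SRT-Puro. Cells of both groups were selected for 11 days in puromycin at 2 µg/ml. Every library comes from 1 cell line, neither group carries a transcription factor fused to the helper, and both groups share the donor and the selection, so insertions are seen only where the donor was expressed. The labels give a total of 30 transfections, 3 to a dish, and do not settle whether libraries came from separate transfections. Insertions with the same site, orientation and barcode, scaled to libraries of mean size, made up a median of 11.97% in 18 pairs of libraries with consecutive numbers, against 10.83% in 72 other pairs within a helper. In 100 pairs between the helpers the median was 10.59%. The ranges overlapped, at 10.03% to 14.93%, 9.32% to 13.25% and 9.38% to 13.98% in that order. As separate transfections are not settled, the p-values below measure the spread between these libraries, which may be technical. The sources used here do not say how hyPBase-centrip differs from hyPBase.

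BCR encodes a signalling protein with a coiled coil that lets copies of it pair, and ABL1 encodes a tyrosine kinase. A break within each gene and the exchange of chromosome ends join the start of BCR to the kinase part of ABL1, which gives the Philadelphia chromosome and the always active BCR-ABL1 kinase of chronic myeloid leukemia. NUP214, a component of the nuclear pore, lies after ABL1 on chromosome 9, and the immunoglobulin lambda genes, which encode antibody light chains, lie just before BCR on chromosome 22. K562 is known for carrying many copies of the fusion and of the sequence around it. A stretch present in more copies offers more TTAA sites to the transposase than the reference genome counts. Open chromatin also takes more insertions, so in these libraries more copies and more open chromatin cannot be told apart by density alone.

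The sequences that mark the step within BCR and the densest single sites of the members were read from the + strand of hg38, which is the strand of all the member genes, with the TTAA in capitals. The TTAA nearest to the end of BCR exon 14 ends 11 bases before the exon does, at chr22:23290399-23290402. It is the last site that took insertions before a run of empty ones, with 14 insertions in 11 libraries, of which 1 was on the + strand. The whole of exon 14, a coding exon of 75 bases at chr22:23290339-23290413, reads:
BCR exon 14: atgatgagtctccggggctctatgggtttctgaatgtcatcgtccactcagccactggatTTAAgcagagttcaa
The next TTAA, at chr22:23291399-23291402, lies 986 bases after the end of that exon and took no insertion in any library. A count of 0 allows up to 3 insertions over the 20 libraries. It is shown with 28 bases on each side, at chr22:23291371-23291430, within intron 14:
BCR intron 14: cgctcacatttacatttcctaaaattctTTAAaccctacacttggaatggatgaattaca
The 64 bases on each side of both sites occur once in hg38.

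The densest single sites were sites of introns. They are shown because they carry the most insertions of each gene and were used in all 20 libraries. The BCR site, at chr22:23242981-23243040 in intron 1, held 421 insertions, 45.6% of them on the + strand. The ABL1 site, at chr9:130824829-130824888 in intron 1, held 432 insertions, 45.4% on the + strand.
BCR intron 1: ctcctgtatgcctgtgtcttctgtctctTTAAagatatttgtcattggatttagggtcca
ABL1 intron 1: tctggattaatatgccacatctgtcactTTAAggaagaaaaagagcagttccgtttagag
The 3 densest sites of NUP214 were used in 1 orientation nearly throughout. The site at chr9:131168542-131168601 in intron 21 held 222 insertions, 9.01% of them on the + strand. The site at chr9:131140348-131140407 in intron 10 held 189, and 0 of those were on the + strand. The site at chr9:131181067-131181126 in intron 24 held 183, of which 3 were on the + strand.
NUP214 intron 21: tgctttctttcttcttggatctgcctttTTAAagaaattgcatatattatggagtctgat
NUP214 intron 10: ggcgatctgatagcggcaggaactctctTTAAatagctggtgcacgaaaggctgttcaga
NUP214 intron 24: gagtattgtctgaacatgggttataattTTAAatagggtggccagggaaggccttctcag

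Depth ranged from 1509672 to 3596762 insertions per library, and from 6980 to 16826 in the 2 windows. To compare libraries of unequal depth, the insertions per TTAA site of a region were divided by those of the whole genome in the same library. In this relative density, a value of 1 is the genome mean, which was 2.71 insertions per site over the 20 libraries. As a check of the label, TTAA sites within 10 kb of marker genes were counted. All 12 erythroid and megakaryocytic markers had a relative density above 1, with a median of 7.28, against 7 of 12 lymphoid markers with a median of 1.12 and 5 of 6 myeloid markers with a median of 3.24. VPREB1, 1 of the lymphoid markers, lies within the immunoglobulin lambda region and had 2.64. MTAP, which lies next to CDKN2A on the short arm of chromosome 9 in a stretch that K562 is known to have lost, held 0 insertions at its 921 TTAA sites, which allows a relative density of up to 0.00120. CDKN2A held 1 insertion at 220 sites.

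Dense bins lay both in long runs around the members and elsewhere in the windows. The run on chromosome 22 ended in BCR and that on chromosome 9, from ABL1 past NUP214, at PLPP7. On chromosome 9 there were 11 dense bins before ABL1 too, among them the densest of both windows, from 129850001, at 34.1 times the genome median. Of the 90 bins on chromosome 22, 37 (41.1%) held at least 4 times the genome median of insertions per site, and so did 24 of the 60 bins on chromosome 9 (40.0%), against 11.0% of bins genome-wide. The windows were chosen for this region, so the high share describes them and is no test. The genes BCR, ABL1 and NUP214 had relative densities of 5.69, 5.86 and 5.47 over all libraries, and all 3 were above 4, as were 8.67% of protein-coding genes. These levels sat close together, between the 95.1 and 95.6 percentile of 17949 genes. In single libraries BCR lay between 4.87 and 6.90, ABL1 between 5.19 and 6.54 and NUP214 between 5.13 and 5.90, so the levels of the 3 genes overlapped.

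**Figure D1:**
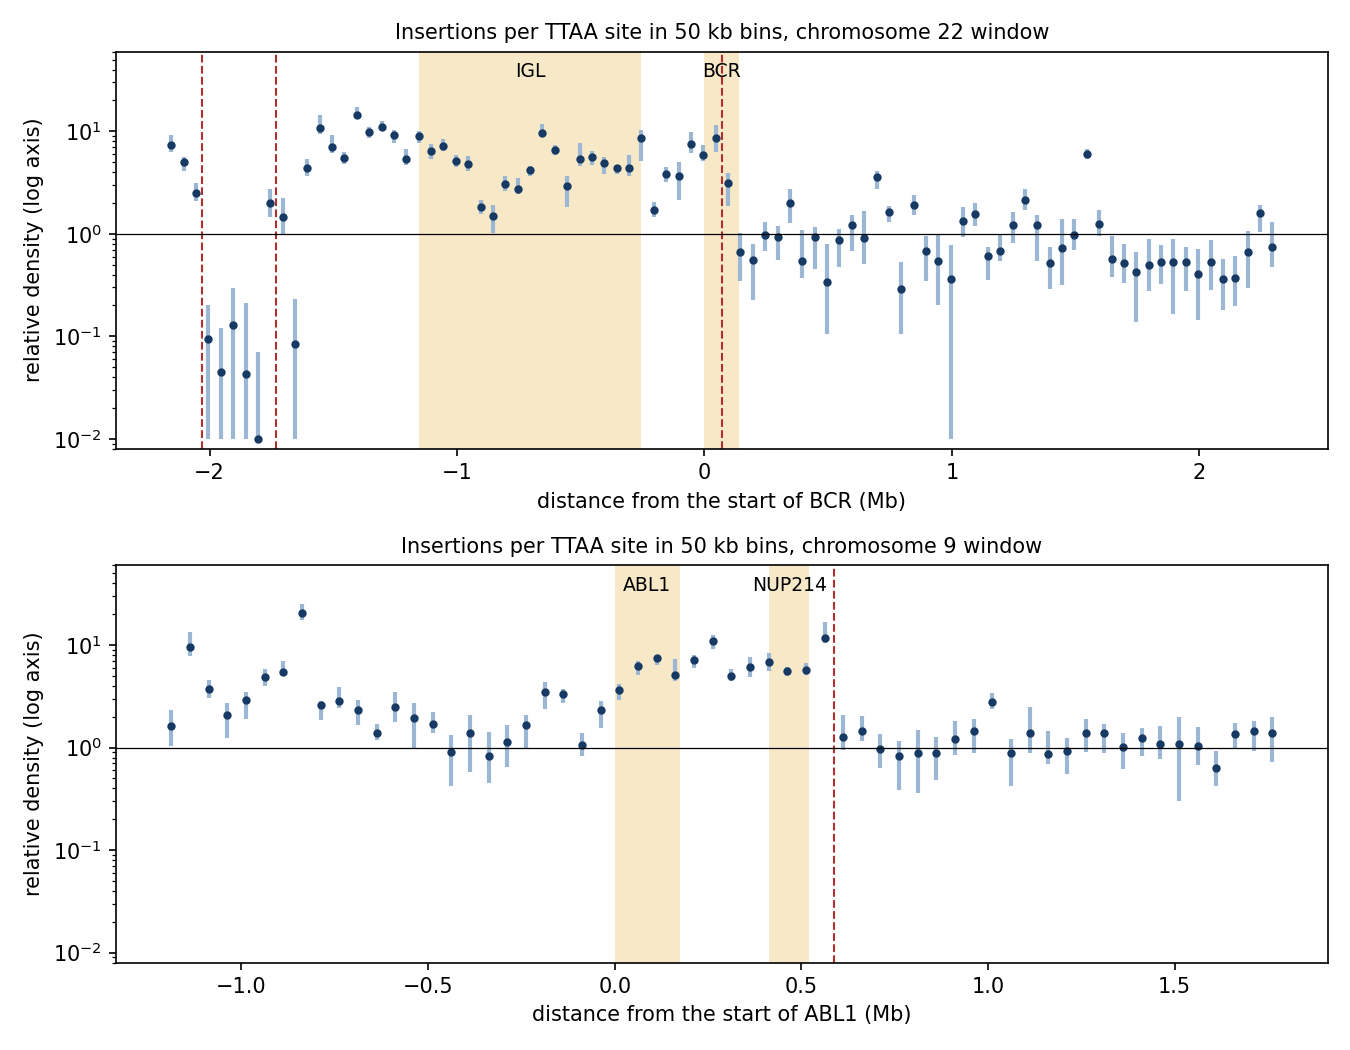
Relative density of insertions (log axis, 1 is the genome mean) in 50 kb bins of the windows on chromosome 22 (top) and chromosome 9 (bottom) by distance from the start of BCR or ABL1. Points are medians and bars the range of 20 libraries, values under 0.01 are drawn at 0.01, shading marks genes or the immunoglobulin lambda (IGL) region and dashed lines mark the 4 steps of at least 4-fold. The run of dense bins ends within BCR on chromosome 22 and just after NUP214 on chromosome 9, and dense bins also lie before ABL1.

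A step was defined at each boundary between bins, as the ratio of the median density of the 5 bins after it to that of the 5 bins before it. Genome-wide, 6.61% of 55669 boundaries held a step of at least 4-fold in either direction, 3.44% lower and 3.17% higher after the boundary. In the windows these boundaries fell into 4 runs. On chromosome 22 the density fell 115-fold at base 21150000, rose 81.2-fold at 21450000 and fell 6.78-fold at 23250000, within BCR. The same 6.78-fold was found at 23300000, also within BCR, and at 23350000, after its end, so the bins do not place that step more closely. On chromosome 9 it fell 6.35-fold at 131300000, over PLPP7, a gene after FAM78A and before PRRC2B. All 20 libraries moved in the same direction at each of the 4. A step as large as that within BCR, in either direction, was found at 2.48% of boundaries genome-wide, and 1 as large as that over PLPP7 at 2.77%, so steps of this size are not rare.

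The stretch between the first 2 steps of chromosome 22 stood out for its sequence. Of its 1159 TTAA sites, 76.6% lie in duplicated sequence, in which the 64 bases on each side both occur more than once in hg38, against 4.47% in the dense stretch that follows. Only 4.83% of its sites took an insertion, and its relative density ranged from 0.226 to 0.354. Whether reads from duplicated sequence were discarded was not tested. On its other side, the 150 kb at the start of the window had a relative density of 3.99 to 4.78, with a median of 4.43, so dense sequence also lay at the edge of the window. Whether it belongs to the same block was not tested.

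BCR held the clearest step of the members. The part before exon 14, at chr22:23179704-23290338 with 294 TTAA sites, is the side that the fusion keeps when the break falls after exon 14. With hyPBase its relative density was 5.56 at the lowest, 6.35 at the median and 7.19 at the highest library. The part after exon 15, at chr22:23292639-23318037 with 52 sites, had 0.135, 0.776 and 1.25. With hyPBase-centrip the values were 6.18, 6.92 and 8.06 before and 0.157, 0.890 and 1.45 after. In both groups every library was denser before, and no library of the part after exon 15 reached the lowest library of the part before exon 14.

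The mean log2 ratio of the part before to the part after was 3.04 ± 0.784 (SD, n = 10) with hyPBase, which is 8.23-fold, and 3.08 ± 0.808 (SD, n = 10) with hyPBase-centrip, which is 8.47-fold. Both passed a two-sided exact sign-flip permutation test (adjusted p = 0.00195 over 8 comparisons), the smallest p that 10 libraries can give. In all 8 comparisons the regions were chosen with earlier results of these data known. The p there shows only that libraries of 1 cell line agree in direction. The spread is wide because the part after exon 15 held 1 to 11 insertions a library and 114 in all, so the ratio of single libraries ran from 4.21-fold to 30.8-fold. With the other side taken on to 100 kb after BCR, an alternative added after the data were seen, the log2 ratios were 3.27 ± 0.188 and 3.14 ± 0.159 (SD, n = 10 each), with a much smaller spread. With each position counted once per library they were smaller, at 2.21 and 2.06, and passed (adjusted p = 0.0026, exact sign-flip permutation test). The helpers did not differ detectably in this ratio (difference 0.0407 on the log2 scale, adjusted p = 0.915 by a permutation test). Over the 20 libraries, the whole parts held 18.1 and 2.19 insertions per site. The contrast was smaller near exon 14, with 10.2 and 2.35 in the 10 kb before and after its end. Within 20 kb the values were 8.52 and 1.91. The bin from 23200001 had a median relative density of 8.60, and that from 23250001, in which exons 14 and 15 lie, 3.10. By sites rather than insertions, 88.8% of the sites before exon 14 and 42.3% of those after exon 15 were hit at least once over the 20 libraries. The low density went on after the gene, where the next 500 kb had a relative density of 0.704 to 1.03.

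**Figure D2:**
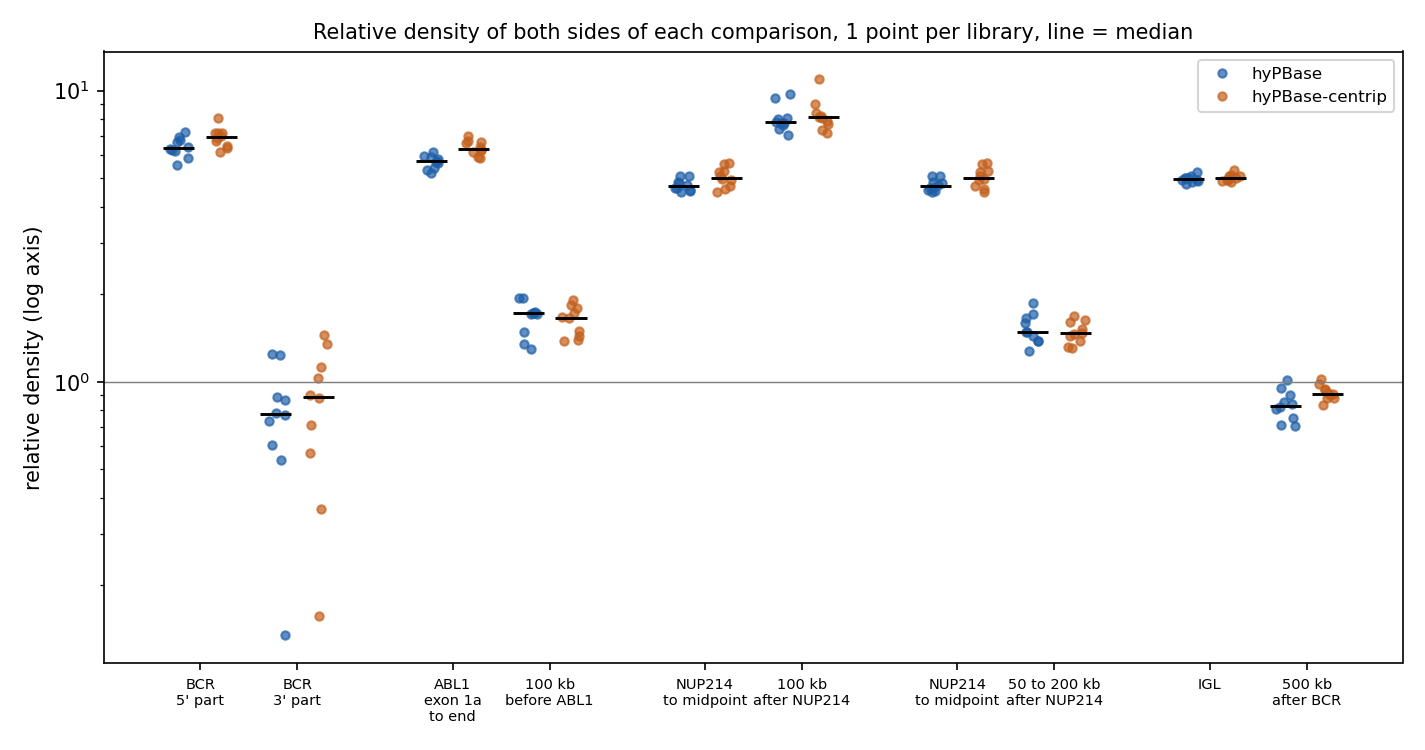
Relative density (log axis) of both sides of each comparison, 1 point per library, with hyPBase in blue and hyPBase-centrip in orange and a line at the median of each group of 10. The 2 sides do not overlap in any comparison, and the part of NUP214 before its midpoint lies below the 100 kb after the gene but above the stretch 50 to 200 kb after it.

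The position of the BCR step was then searched between single sites, over the gene and 50 kb on each side. The split that best separated hit from unhit sites lay between 23285898 and 23286907, in intron 10, with 88.5% of sites hit before and 40.9% after. The split that best separated the counts of insertions lay between 23290399 and 23291399, thus between the exon 14 site and the first site of intron 14 printed above. It had 18.1 insertions per site before and 1.73 after. The same place was found when insertions of at least 2 reads alone were kept. The 2 answers differ only in the side given to 3 sites.

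Single libraries carried less information. The split was denser before in 20 of 20 libraries, and 9 of 20 lay within 5 kb of that of all libraries, with a range from 23250312 to 23300426. Around the end of exon 14, the 13 sites of the 10 kb before it held 132 insertions and the 23 sites of the 10 kb after it held 54. The median site held 7 insertions before and 0 after. All 5 TTAA sites of intron 14, which is 2127 bases long, held none. The first site to take insertions after it, at 23292893, held 14.

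**Figure D3:**
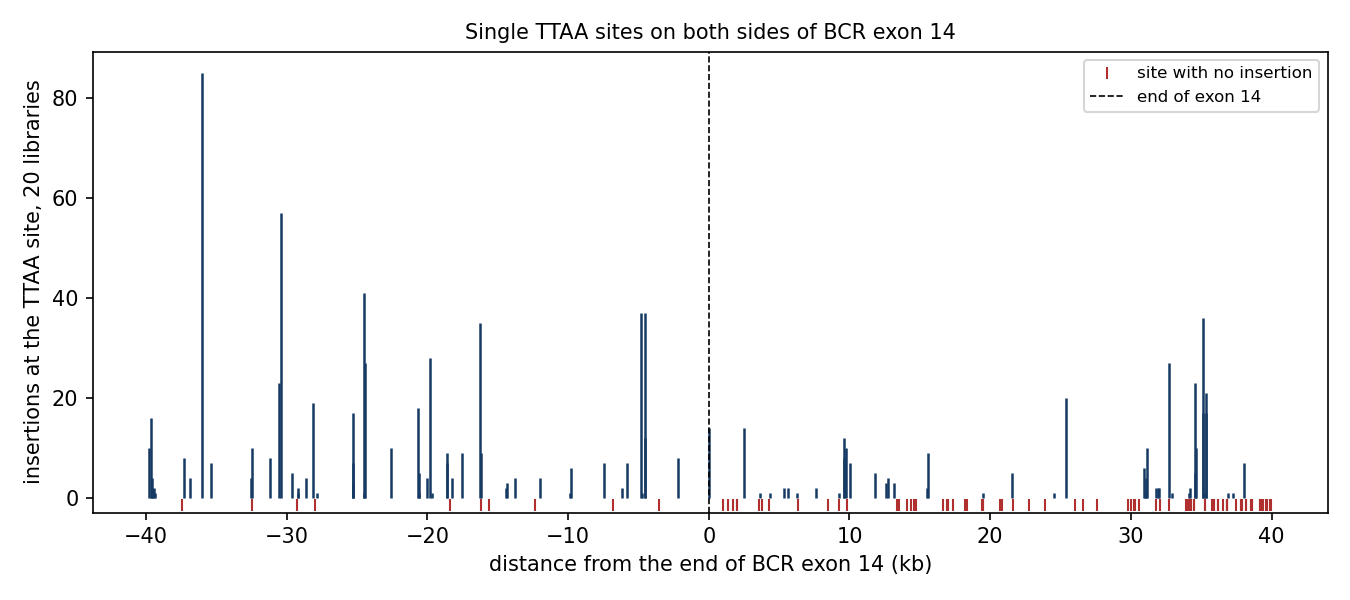
Insertions of 20 libraries at each TTAA site within 40 kb of the end of BCR exon 14, by distance from that end. Bars are sites with insertions and red ticks sites with none, and empty sites become frequent after exon 14, where the 23 sites of the first 10 kb held 54 insertions against 132 at 13 sites before.

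ABL1 showed the opposite direction, with the dense side at its end. The part from exon 1a to the end of the gene, at chr9:130835254-130887675 with 228 sites, holds the kinase exons that the fusion keeps. With hyPBase it had a relative density of 5.20 at the lowest, 5.72 at the median and 6.17 at the highest library, against 1.29, 1.72 and 1.95 in the 100 kb before the gene. With hyPBase-centrip these were 5.89, 6.32 and 7.0 against 1.38, 1.66 and 1.92. The groups of values did not overlap.

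The mean log2 ratio was 1.78 ± 0.175 (SD, n = 10) with hyPBase, or 3.43-fold, and 1.97 ± 0.180 (SD, n = 10) with hyPBase-centrip, or 3.92-fold. With each position counted once they were 1.16 and 1.11, and against 200 kb before the gene 1.15 and 1.32, and both still passed. The part from exon 1a was denser in all 10 libraries of each group (adjusted p = 0.00195, exact sign-flip permutation test). The ratio was higher with hyPBase-centrip by 0.190 on the log2 scale, which did not pass after adjustment over 4 comparisons (adjusted p = 0.0594, permutation test). The change at ABL1 was smaller than the step within BCR and was not a 4-fold step in 50 kb bins. From 130650000 to 130800000 the boundaries rose by 3.21-fold to 2.07-fold, and 10.3% to 24.9% of boundaries genome-wide were as large.

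Within ABL1 the rise lay after exon 1b, the first exon of the longer transcript, and before exon 1a. In pieces of 10 kb, the first 20 kb after the start of exon 1b had median relative densities of 2.66 and 1.69, close to the 1.41 and 1.57 of the 20 kb before it. The piece from 20 to 30 kb rose to a median of 6.49, with a range of 4.96 to 8.43 that overlapped, of the 6 pieces before it, that of the piece 20 to 30 kb before the gene alone (2.57 to 5.55). Further pieces to 80 kb stayed between medians of 3.16 and 6.71. The site searches placed the step within intron 1, but not at 1 place. By hit sites it lay between 130763361 and 130763421, with 75.7% of sites hit before and 90.4% after. By counts it lay between 130737365 and 130737581, and with at least 2 reads between 130735017 and 130735369. The splits of single libraries by hit sites ran from 130726170 to 130768753 with a median of 130736449, and 1 of 20 lay within 5 kb of that of all libraries. The part from exon 1b to exon 1a as a whole had a median relative density of 5.76, so most of intron 1 was as dense as the rest of the gene.

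**Figure D4:**
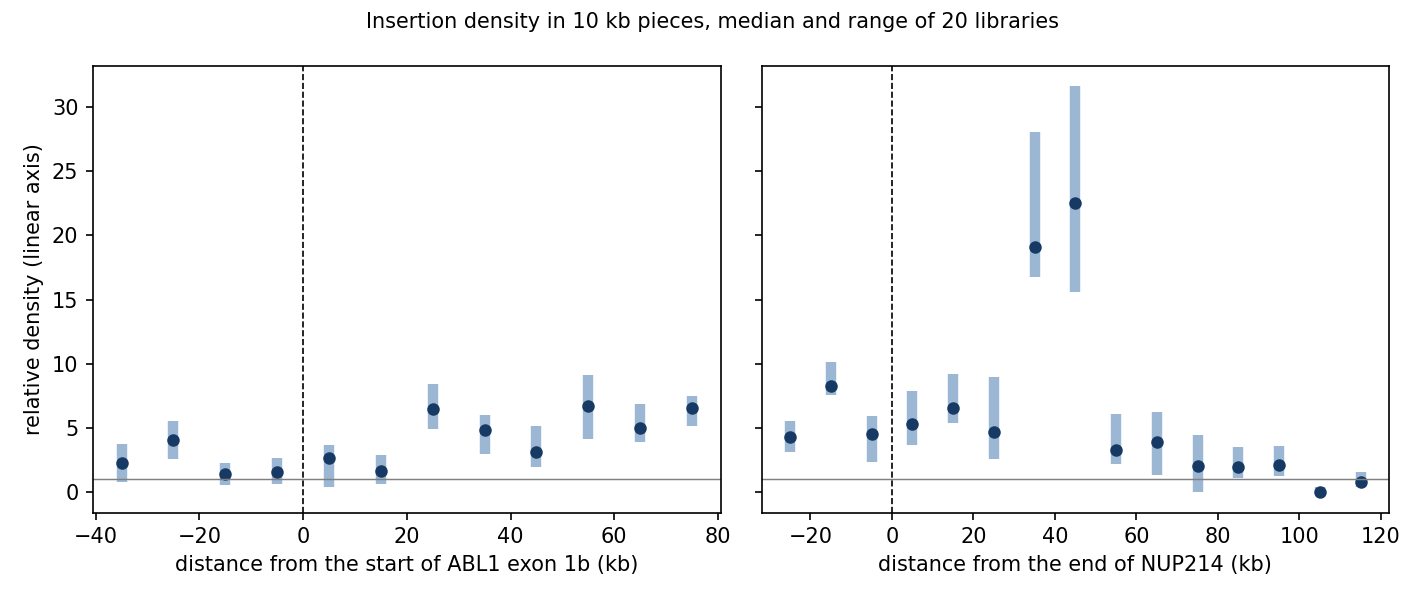
Relative density (linear axis, 1 is the genome mean) in 10 kb pieces by distance from the start of ABL1 exon 1b (left) and from the end of NUP214 (right), with the median as a point and the range of 20 libraries as a bar. Density rises 20 to 30 kb into ABL1, peaks 30 to 50 kb after NUP214 and falls to a median of 0 at 100 to 110 kb after it.

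NUP214 lay wholly inside the dense block. Its first part, from its start to its midpoint at chr9:131125573-131180118 with 364 sites, had relative densities of 4.48, 4.70 and 5.10 at the lowest, median and highest hyPBase library and of 4.50, 5.03 and 5.66 with hyPBase-centrip. The part of NUP214 after its midpoint, with 317 sites, was denser, at 5.82, 6.03 and 6.75 with hyPBase and 5.80, 6.10 and 6.57 with hyPBase-centrip. By hit sites, the split of all libraries lay between 131162854 and 131162963, in intron 18, with 76.6% of sites hit before and 88.2% after. Splits of single libraries ran from 131139459 to 131272162, and 4 of 20 lay within 5 kb of it. The 100 kb after the gene had 7.06, 7.80 and 9.71 with hyPBase and 7.13, 8.09 and 10.9 with hyPBase-centrip. The density thus did not fall at the end of the gene. The mean log2 ratio of this first part to the 100 kb after was -0.76 ± 0.193 (SD, n = 10) and -0.70 ± 0.200 (SD, n = 10), and all libraries were denser after (adjusted p = 0.00195 each, exact sign-flip permutation test).

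That direction depended on the stretch and the measure. Against the stretch 50 to 200 kb after the gene, chosen after the data were seen, the ratio turned to 1.64 with hyPBase and 1.77 with hyPBase-centrip. Per kb in place of per TTAA site it turned to 0.74 and 0.80, as the 100 kb after the gene holds few TTAA sites. Neighbouring pieces carried the high values. The pieces 30 to 40 kb and 40 to 50 kb after NUP214, over FAM78A and the sequence in front of its start, had medians of 19.1 and 22.5, while the pieces at 70 to 100 kb had 2.01 to 2.11 and the piece at 100 to 110 kb held 8 insertions at 37 sites.

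The end of the chromosome 9 block was sharper than its start. The bin from 130700001, which holds the start of ABL1 and sequence before it, had a median relative density of 3.67. The 11 bins from there to 131300000 had 5.03 to 11.7, and the 24 bins after it had 0.630 to 2.78, so no bin after it reached the lowest of these 12 bins. Of the 24 bins before ABL1, with 0.836 to 20.5 and a median of 2.33, 3 were above the lowest of the 11 bins and 5 above the bin with the start of ABL1. Among genes that lie wholly within these stretches, 6 of 6 in the block had a relative density of at least 4, from NUP214 at 5.47 to FAM78A at 16.02, against 0 of 9 after it. AIF1L, an actin bundler, had 7.89 and LAMC3, a laminin chain, had 5.82. PLPP7, over which the step lies, had 1.59, and PRRC2B after it had 1.03. The edges of the stretches were set at the steps, so these counts describe the block and test nothing.

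On chromosome 22 the block from 21450001 to 23292638 held 117185 insertions, which is 0.225% of all insertions at 0.0387% of the TTAA sites. Its relative density was 5.60 at the lowest, 5.80 at the median and 6.42 at the highest library, against 1.03, 1.13 and 1.2 from exon 15 of BCR to the end of the window. The start of the block was set at the step and not all of it was dense. The bins from 21450001 and 21500001 had medians of 1.46 and 0.0844, with 61.1% and 81.4% of their sites in duplicated sequence. The bin from 21550001 had 4.34. Of 15 genes with at least 5 TTAA sites within the block, 13 had a relative density of at least 4. PPM1F, a protein phosphatase, had 10.1, and RAB36, a small GTPase just before BCR, had 9.12. After BCR, 1 of 27 genes passed that level, which was PIWIL3 at 5.45, and SMARCB1, a chromatin remodelling subunit, had 0.669.

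The immunoglobulin lambda region, taken from its first to its last segment of 87 and placed at chr22:22026076-22923034, held 55809 insertions at 4118 TTAA sites. With hyPBase its relative density was 4.79 at the lowest, 4.97 at the median and 5.25 at the highest library, and with hyPBase-centrip 4.85, 5.02 and 5.34. The 500 kb after BCR had 0.704, 0.828 and 1.01 and then 0.834, 0.911 and 1.03. The mean log2 ratio was 2.58 ± 0.160 (SD, n = 10), or 5.98-fold, and 2.45 ± 0.0808 (SD, n = 10), or 5.45-fold, with all libraries denser in the region (adjusted p = 0.00195 each, exact sign-flip permutation test). With each position counted once the log2 ratios were 1.98 and 1.82. The ratio was lower with hyPBase-centrip by 0.13 on the log2 scale, which did not pass (adjusted p = 0.0594, permutation test). The region was not even. Its bins had median relative densities from 1.51, in the bin from 22300001, to 9.58, in the bin from 22500001. The bin from 22250001 had 1.83, with 31.9% of its sites in duplicated sequence. Among the dense genes within the region, ZNF280A and ZNF280B, a pair of zinc finger genes, had 12.3 and 5.90, and PRAME, a tumor antigen, had 5.77.

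XKR3 lies outside the windows on chromosome 22 and is named because K562 is known to carry a fusion of NUP214 with it. Its relative density was 3.10 at the lowest, 3.81 at the median and 4.66 at the highest of the 20 libraries. The 100 kb before it, toward the start of the chromosome, had a median of 1.79 and the 100 kb after it 0.395. In every library XKR3 was therefore denser than both flanks, and it was less dense than NUP214, whose lowest library had 5.13.

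Orientation was a measure that the choice of the windows did not use. It was taken as the share of insertions on the strand of the gene. Over 9183 genes with at least 500 insertions the median share was 32.2%, with 14.1% at the 10th and 49.1% at the 90th percentile, so shares under 50% are the rule. NUP214 had 14.4% ± 1.41 (SD, n = 10) with hyPBase and 14.4% ± 1.73 with hyPBase-centrip, and 10.6% of genes were lower. The part of BCR before exon 14 had 22.8% ± 2.63 and 24.98% ± 3.02, and ABL1 32.9% ± 2.63 and 34.1% ± 1.87. All 10 libraries of each group were below 50% in each of these (adjusted p = 0.00456 over 14 comparisons, exact sign-flip permutation test). As shares under 50% are the rule, that p does not set these genes apart. For the whole of BCR 30.3% of genes had a lower share, and for ABL1 53.2%.

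The part of BCR after exon 15 had 24.02% ± 18.7 and 30.4% ± 24, from 114 insertions in all, and a difference from the part before was not detectable at this depth (adjusted p = 0.879 and 0.547, exact sign-flip permutation test). ABL1 was not uniform. From exon 1b to exon 1a the share ran from 31.7% to 43.3% in single hyPBase libraries and from exon 1a to the end from 14.5% to 25%. The mean difference was 19.5 ± 3.55 percentage points (SD, n = 10) with hyPBase and 18.3 ± 3.27 with hyPBase-centrip, and the groups of values did not overlap (adjusted p = 0.00195 over 2 comparisons, exact sign-flip permutation test, chosen after the values were seen).

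**Figure D5:**
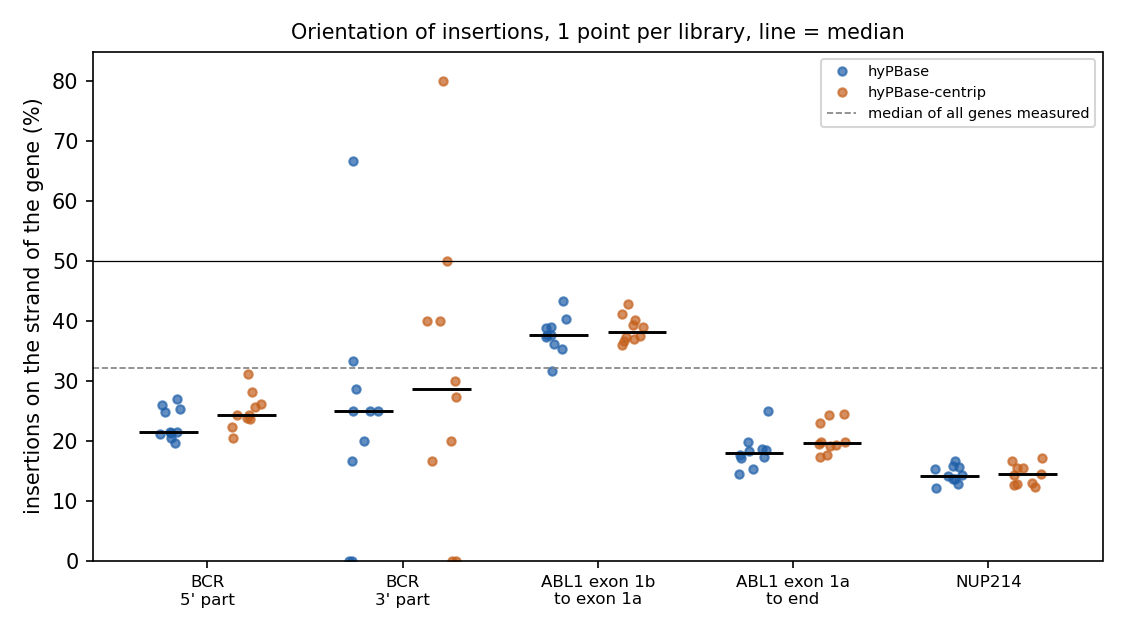
Percent of insertions on the strand of the gene, 1 point per library, hyPBase in blue and hyPBase-centrip in orange, with a line at each group's median, a dashed line at the median of 9183 genes (32.2%) and a solid line at 50%. NUP214 sits lowest, the 2 parts of ABL1 do not overlap and the part of BCR after exon 15 is spread widely.

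The count of reads behind each insertion did not follow the density in a way that held in both groups. The part of BCR before exon 14 had more reads per insertion than the part after exon 15 with hyPBase-centrip, by 0.58 ± 0.638 (SD, n = 10) on the log2 scale and in 8 of 10 libraries (adjusted p = 0.0444, exact sign-flip permutation test), and with hyPBase by 0.15 ± 0.502 in 6 of 10 (adjusted p = 0.544). The call with hyPBase-centrip was lost when the share of insertions with 1 read was used instead (adjusted p = 0.520). For ABL1 against the 100 kb before it, no difference passed (adjusted p = 0.547 and 0.109).

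The helpers were also compared bin by bin, to see whether the blocks differ between them. By the quasi-likelihood test of edgeR, with p adjusted after Benjamini and Hochberg, 465 of 47224 bins of 50 kb passed genome-wide, which is 0.985% (0.339% denser and 0.646% sparser with hyPBase-centrip), and 3 of the 136 bins tested in the windows did. All 3 were denser with hyPBase-centrip and lay on chromosome 9. The bin from 130700001, which holds the start of ABL1, differed by 0.22 on the log2 scale (adjusted p = 0.0348). The bin from 131650001, in RAPGEF1, differed by 0.38 (adjusted p = 0.00544) and the bin from 131800001, between RAPGEF1 and MED27, by 0.50 (adjusted p = 0.0347). Without hyPBase-centrip replicate 3, the library with the highest density in the part of BCR before exon 14, only the bin from 131650001 passed (adjusted p = 0.0099), and the other 2 had adjusted p = 0.0505 and 0.0768. With at least 2 reads the same 2 bins were lost (adjusted p = 0.133 and 0.172). No bin of the chromosome 22 window and none of NUP214 passed.

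Single sites were shared between libraries in all 3 genes. Of the 352 TTAA sites of BCR, 14 took an insertion in every library and 68 in none. In ABL1 these were 44 and 128 of 940 sites, and in NUP214 31 and 112 of 681. The sites used in all libraries made up 3.98%, 4.68% and 4.55% of the sites of each gene. The BCR share covers both sides of its step. The same share over all TTAA sites of the genome is not given here, so these counts do not set the genes apart.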

How the data were processed

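The authors deposited 1 table per library with a line per insertion and, as a measurement, the raw read count behind it, which was not normalized. Per the labels, self-reporting transcripts were reverse transcribed, amplified and sequenced, and the submitters' processing notes name Trimmomatic, BWA, SAMtools and build hg38, with no versions or filters. How reads in repeated sequence were treated is not given in the sources used here. Each line was taken as 1 insertion. Barcodes are donor labels, not molecules. The SDs given are over the 10 libraries of a helper and may cover technical spread only. For 2 further libraries the labels name different helpers, so they had no group and were not used.

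TTAA sites were found by search of the hg38 sequence, and gene models were those of GENCODE version 44. The members, the regions and the marker lists were chosen with earlier results of these data known. For ratios, 0.5 was added to each count of insertions. Ratios within a library were tested by a two-sided exact sign-flip permutation test, separately for each helper, and by permutation (100000 resamples) between helpers, with Benjamini-Hochberg adjustment over 8, 14 or 4 comparisons. Bins with at least 50 TTAA sites entered the search for steps, genes with at least 5 sites the gene counts, and 20 sites were kept on each side of a split. Splits were scored by the likelihood of hit and unhit sites. Helper differences used edgeR 4.0.16 in R 4.3.3 (TMM, at least 10 insertions in at least 10 libraries), with DESeq2 1.42.0 as an alternative. On simulated counts over 47224 bins for this comparison, edgeR recovered 79 of 100 bins changed 1.5-fold and 100 of 100 changed 2-fold. Named genes were BCR, ABL1 and NUP214, genes at the steps and, as examples chosen after their values were seen, genes within the stretches. Alternatives covered read minimums, collapsed barcodes, flanks, bin lengths, normalization and a replicate block. Python 3.11.15, numpy 2.4.6, scipy 1.17.1 and matplotlib 3.10.9 were used.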

Additional observations from a re-analysis of the deposited data

Results flagged for a closer look

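Of 20 sets of 10 libraries checked for a value far from the others, 4 had one, where chance gives about 1 in 20. The relative density of the part of BCR before exon 14 was 8.06 in hyPBase-centrip replicate 3, with the next library at 7.17. Replicate 3 had the fewest insertions of its group, 1638175, with the next at 2350404. The same library had 10.9 in the 100 kb after NUP214, with the next at 9.03. NUP214 had 5.87 in hyPBase replicate 10, with the next at 5.54. XKR3 had 3.10 in hyPBase-centrip replicate 8, with the next at 3.54.

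The helpers differed by the edgeR test in 3 bins of chromosome 9. The bin from 130700001 differed by 0.22, that from 131650001 by 0.38 and that from 131800001 by 0.50 on the log2 scale, higher with hyPBase-centrip.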

How the results depend on the processing

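The direction and the call of the BCR, ABL1 and immunoglobulin lambda comparisons held under the alternatives tried other than the use of odd replicate numbers alone, where 5 libraries cannot go below p = 0.0625. There the log2 ratios with hyPBase and hyPBase-centrip were 3.45 and 3.01 for BCR, 1.77 and 1.96 for ABL1, -0.78 and -0.70 for NUP214 and 2.61 and 2.41 for immunoglobulin lambda. The same-strand shares were 23.2% and 25.2% for BCR before exon 14, 32.3% and 34.8% for ABL1, 14.3% and 14.2% for NUP214, and 24.05% for BCR after exon 15 with hyPBase.

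NUP214 against the 100 kb after it turned to 0.74 and 0.80 per kb, to 0.25 and 0.32 against 200 kb and to 1.64 and 1.77 against 50 to 200 kb, and was no longer called with each position counted once (-0.0822 and -0.0587). The ABL1 split moved to 130737365 by counts and to 130735017 with at least 2 reads. The NUP214 split moved from 131162854 to 131272162 by counts and to 131305727 with 100 kb of flank. The difference in same-strand share of the BCR parts with hyPBase turned to 2.80 points with at least 2 reads. The difference in reads per insertion as a share with 1 read was -5.23 points, a reversed direction, and 4.76 points, no longer called. The causes were not tested.

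With log library size as a term, 698 bins differed between the helpers. In the windows 1 bin did without hyPBase-centrip replicate 3, and 1 by DESeq2, which gave the other 2 no adjusted p. With at least 2 reads 3 bins were called, of which 1 was among the 3 named. Replicate numbers did not pair the libraries (correlations of -0.0245 to 0.0191 over 10 pairs, with 1 of 10 closest to its own number). With a replicate block, 415 bins differed, and the helper difference for ABL1 of 0.190 then passed (adjusted p = 0.00781). With few insertions after BCR exon 15, density there is the least certain value. Copy number and openness cannot be told apart.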
